A study of Mus musculus with 298 samples.

Results

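The 10 genes described here encode potassium channel subunits that set how far a neuron sits from its firing threshold. Of these, 5 encode two-pore domain (K2P) channels, namely Kcnk1, Kcnk2, Kcnk3, Kcnk9 and Kcnk10, and 5 encode inward rectifiers, namely Kcnj3, Kcnj6, Kcnj9, Kcnj10 and Kcnj11. They were picked by name from the 22800 genes of the count table, not by a threshold on their values, and every one was found in it. The cells were mouse neurons from the suprachiasmatic nucleus (SCN), which paces daily rhythms from the hypothalamus, and their cytoplasm was drawn into a patch pipette after a recording and sequenced cell by cell, at 3187057 to 25535298 reads per cell.

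The mice had lived under 12 hours of light and 12 hours of dark, and slices were cut near lights on for day cells and near lights off for night cells. The labels give each cell a firing state, a time of day and a cFOS state, where cFOS is the product of an immediate early gene used as a mark of recent activity. The depolarized cells numbered 2 (day, cFOS+), 7 (day, cFOS-), 3 (night, cFOS+) and 2 (night, cFOS-). The active cells numbered 51 (day, cFOS+), 27 (day, cFOS-), 41 (night, cFOS+) and 46 (night, cFOS-). The silent cells numbered 17 (day, cFOS+), 32 (day, cFOS-), 35 (night, cFOS+) and 35 (night, cFOS-). The labels name no strain, age, allele or agent for any group.

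Several cells came from each slice and the labels tie no cell to an animal or slice, so each group counts as 1 sample and no test or p-value is given. Counts were pooled over the cells of a group as CPM, a gene's reads scaled to a common library total, with exact Poisson 95% intervals that cover counting error only and not the spread between cells. A ratio is the log2 of (CPM + 1) over (CPM + 1), and it was also taken in 4 strata that hold the other labels fixed. Shares of cells with a read were counted after drawing 4210000 reads at random from every cell, without the 30 of 297 that had fewer (thinned cells), and carry exact Clopper-Pearson 95% intervals. The night silent cells S71, deposited as cFOS+, and S70, deposited as cFOS-, had a correlation of 0.9995 across genes, against at most 0.70 for the other pairs of cells, and their mean was counted as 1 silent cell with no cFOS label, which left 297 distinct cells.

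Neuron markers summed to a median of 4966 CPM, and every cell reached 100 CPM of them. RNA of other cell types was also present, with astrocyte markers at 100 CPM or more in 106 of 297 cells and microglia markers in 113. The Fos transcript went against the cFOS label at the pooled level, with 2005 CPM in 143 active or silent cells labelled cFOS+ and 2676 CPM in 139 labelled cFOS-, and a Fos read in 93.7% of the cFOS+ cells and 92.9% of the cFOS- cells. The cFOS groups are therefore named below only by their label.

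K2P channels pass a leak of potassium that is open near rest and holds the membrane negative, and different members are tuned by stretch, lipids, acidity and receptors. The inward rectifiers let potassium in more readily than out. Among them the G protein-gated channels (GIRK) open when receptors coupled to inhibitory G proteins free the beta-gamma subunits. SCN neurons are known to be more depolarized and to fire faster by day than by night, and changes in potassium conductance are a known part of that rhythm.

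The windows below run from 250 bases before to 50 bases after an annotated start in RefSeq (GRCm38.p6), on the gene's strand, with CG dinucleotides in capitals. Kcnk1 is shown as the most abundant of the 10 genes, and Kcnj3 and Kcnj6 as the GIRK pair whose levels were most alike across cells. They lie at chr8:125994852-125995151 (plus strand), chr2:55435720-55436019 (plus strand) and chr16:94997647-94997946 (minus strand).
Kcnk1: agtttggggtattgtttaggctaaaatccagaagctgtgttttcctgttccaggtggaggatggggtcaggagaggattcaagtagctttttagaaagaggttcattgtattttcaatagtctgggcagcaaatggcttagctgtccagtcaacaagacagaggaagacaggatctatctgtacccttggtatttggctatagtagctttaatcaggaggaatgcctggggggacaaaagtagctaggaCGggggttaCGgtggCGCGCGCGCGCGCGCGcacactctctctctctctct
Kcnj3: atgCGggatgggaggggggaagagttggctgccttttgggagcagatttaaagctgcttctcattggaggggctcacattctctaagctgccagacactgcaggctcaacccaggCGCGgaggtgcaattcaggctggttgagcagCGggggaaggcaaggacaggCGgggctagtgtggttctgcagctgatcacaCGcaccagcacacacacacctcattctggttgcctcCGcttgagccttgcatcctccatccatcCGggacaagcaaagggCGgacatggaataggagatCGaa
Kcnj6: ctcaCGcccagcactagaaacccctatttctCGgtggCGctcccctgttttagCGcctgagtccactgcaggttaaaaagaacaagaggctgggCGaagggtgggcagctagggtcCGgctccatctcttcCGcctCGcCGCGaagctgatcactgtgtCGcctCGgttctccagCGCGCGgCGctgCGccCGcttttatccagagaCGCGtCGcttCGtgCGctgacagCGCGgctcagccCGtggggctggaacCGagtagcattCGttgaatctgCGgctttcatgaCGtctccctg
The Kcnk1 and Kcnj3 windows hold 10 CG dinucleotides each and the Kcnj6 window shown holds 30, against a median of 7 in 32851 RefSeq windows of the same length. Another Kcnj6 window, at chr16:94856641-94856940 and not shown, holds 9. RefSeq windows were at hand for 7 of the 10 genes, 12 windows in all, and not for Kcnk3, Kcnk9 and Kcnj11. Clock-related motifs were searched on both strands, namely the E-box CACGTG, the cAMP response element TGACGTCA, the D-box TTATGNAA and the ROR element. None of the 12 windows held any of them, while 7.15% of all windows held the E-box, 1.79% the cAMP response element, 3.38% the D-box and 0.219% the ROR element. A window without these letters says nothing of the factors that bind them elsewhere.

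Each of the 10 genes was found in a minority of cells, and the median cell had 0 CPM of every one in all 8 active and silent groups. At least 1 of them had a read in 71.9% of thinned cells, 88 cells had exactly 1, 66 had 2, and the cell with the most had 7. K2P genes were found in 53.9% of thinned cells and inward rectifier genes in 41.9%. In cytoplasm drawn by pipette, a gene at 0 in a cell may be unexpressed or uncaptured, and these cannot be told apart.

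Per kilobase of exon, which allows genes to be compared, Kcnk1 (TWIK1, a K2P subunit known for weak currents and much intracellular retention) stood highest at 19.3 CPM per kb. Its level was above that of the next gene in 8 of 8 active and silent groups. Kcnj9 (GIRK3, a GIRK subunit that joins others and regulates their trafficking) followed at 7.60 CPM per kb and was above Kcnk3 in 7 of 8 groups. Kcnk3 (TASK1, an acid-inhibited leak channel) came next at 4.58 CPM per kb and exceeded Kcnj3 in 6 of 8.

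The middle of the order was not settled across groups. Kcnj3 (GIRK1, which needs a partner subunit to reach the surface) had 3.31 CPM per kb and Kcnk2 (TREK1, a stretch- and lipid-sensitive leak channel) 3.02, and Kcnj3 was the higher of the pair in only 3 of 8 groups. Kcnj10 (Kir4.1, the main inward rectifier of astrocytes, where it clears extracellular potassium) had 1.30, Kcnk10 (TREK2, a relative of TREK1) 1.04 and Kcnj6 (GIRK2, able to form channels alone) 0.894 CPM per kb. Kcnj10 was above Kcnk10 in 3 of 8 groups and Kcnk10 above Kcnj6 in 5 of 8. Kcnj11 (Kir6.2, the pore of the ATP-sensitive channel) at 0.0771 and Kcnk9 (TASK3, an acid-inhibited relative of TASK1) at 0.0726 CPM per kb came last.

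The share of cells with a read gave 3 tiers. Kcnj9 was found in 24.7% of thinned cells (19.7 to 30.3%), Kcnk2 in 23.6% (18.6 to 29.2%), Kcnk1 in 22.8% (17.9 to 28.4%), Kcnk3 in 22.8% (17.9 to 28.4%) and Kcnj3 in 20.2% (15.6 to 25.5%). These 5 shares lie within each other's intervals. Kcnj6 at 7.49%, Kcnk10 at 6.37%, Kcnk9 at 4.12% and Kcnj10 at 3.75% formed a lower tier, and Kcnj11 was found in 1 cell. Over all cells, the pooled level was 43.2 CPM for Kcnk1, 32.6 CPM for Kcnj9, 18.2 CPM for Kcnk3, 17.2 CPM for Kcnj3 and 14.9 CPM for Kcnk2.

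Kcnk2 and Kcnk1 were found in like numbers of cells but at different levels per cell. Among cells with a read, the lowest, median and highest were 0.0649, 130 and 928 CPM for Kcnk1 and 0.150, 11.9 and 493.1 CPM for Kcnk2. Cells at 100 CPM or more numbered 46 for Kcnk1 and 13 for Kcnk2. Kcnj9 reached 100 CPM in 30 cells and Kcnk3 in 24.

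A few cells carried much of the pooled signal of the scarcer genes. The cell with most reads held 45.03% of all Kcnj10 reads, 37.1% of Kcnj6, 27.7% of Kcnk9, 23.7% of Kcnj3 and 19.4% of Kcnk10, against 6.29% of Kcnk1. Cell S498, a day silent cFOS- neuron, had the highest Kcnj3 (1932 CPM) and the highest Kcnk10 (623 CPM) of all cells and 9598 CPM of Avp, the vasopressin gene. Pooled levels of these scarcer genes are therefore read below together with the share or number of cells and, in several comparisons, the value without the top cell.

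**Figure D1:**
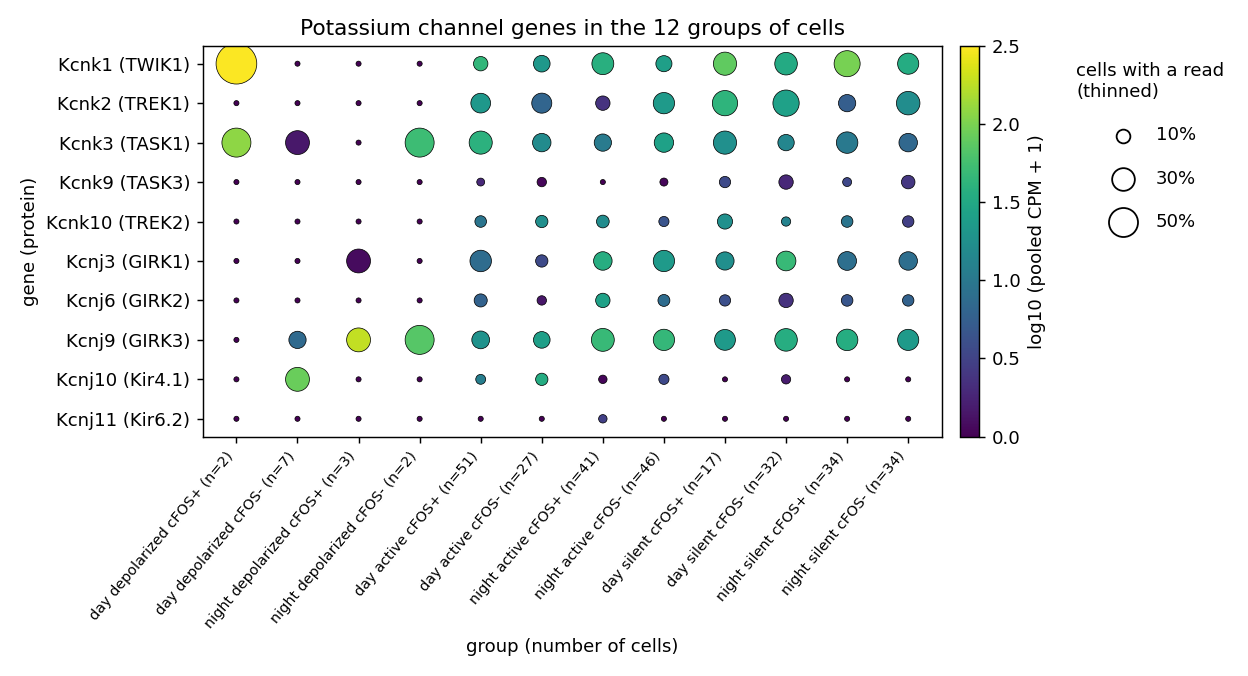
Pooled level (colour, log10 of CPM + 1) and share of thinned cells with a read (dot area) of each gene in the 12 groups, depolarized groups at the left. Kcnk1, Kcnk2, Kcnk3, Kcnj3 and Kcnj9 have a read in each of the 8 active and silent groups at shares of 7.69 to 40.7%, while Kcnj11 appears in 1 group; the depolarized groups hold 2 to 7 cells each.

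Active cells contained Kcnk1 less often and at a lower pooled level than silent cells, a smaller share of them contained Kcnk2, and Kcnk3, Kcnj6 and Kcnj10 had higher pooled levels in active cells. This comparison asks which leak and rectifier genes differ between neurons that fired and neurons that did not. Of the 10 genes, 8 reached 5 CPM in active or silent cells; Kcnk9 and Kcnj11 did not. Of those 8, 3 were 2-fold or more higher in active cells, where 7.21% of 11821 genes were, and none was 2-fold or more lower, where 6.28% were. The median log2 ratio of the 8 was 0.22, against 0.01 over all genes tested, and 5 of 8 were higher, against 50.6% of genes.

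Kcnk1 (TWIK1) had 0 to 876 CPM in 165 active cells (median 0, 31 cells with a read) and 0 to 928 CPM in 118 silent cells (median 0, 39 cells with a read). Both groups span the same range, and the difference lay in how many cells had the gene. A read was found in 16.8% of active cells (11.2 to 23.8%) and 32.4% of silent cells (23.6 to 42.2%). Among cells with a read, the median was 131.7 CPM in active and 121 CPM in silent cells.

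The lower share of Kcnk1 in active cells held in all 4 strata, at 11.1% of active against 31.2% of silent cells in day cFOS+, 15.4% against 29.6% in day cFOS-, 10 of 36 against 12 of 30 cells in night cFOS+ and 14.3% against 25.8% in night cFOS-. A share at least 10 points lower that was lower in all 4 strata was found for 5.03% of the 11821 genes. Pooled levels were 32.4 CPM in active and 58.6 CPM in silent cells (log2 ratio -0.84), and the ratio was negative in all 4 strata (-1.37 to -0.44). It was also -0.84 when each group lost its top cell, -1.15 without cells with astrocyte markers and -0.67 without cells with microglia markers. Among cells with lower and higher numbers in their titles, split at the median number of 366, it was -2.13 and -0.29.

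Kcnk2 (TREK1) was found in 20.8% of active cells (14.6 to 28.2%) and 30.5% of silent cells (21.9 to 40.2%), with overlapping intervals. Its share was lower in active cells in all 4 strata, as for 11.4% of all genes tested. The pooled level was 13.3 CPM in active and 18.8 CPM in silent cells (log2 ratio -0.47), higher in active cells only among night cFOS- cells (0.47). Across all genes tested, the median share was 1.86 points lower in active cells, and the thinned cells had a median of 4349 genes when active and 4523 when silent.

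Kcnk3 (TASK1) differed in level rather than in share. A read was found in 22.8% of active cells (16.4 to 30.4%) and 21.9% of silent cells (14.4 to 31.0%). Among cells with a read, values were 0.198 to 450 CPM (median 64.5 CPM, 41 cells) in active cells and 0.0885 to 235.6 CPM (median 7.24 CPM, 27 cells) in silent cells. Cells at 100 CPM or more numbered 17 of 165 active and 6 of 118 silent. The pooled level was 23.5 CPM in active and 10.3 CPM in silent cells (log2 ratio 1.11), positive in all 4 strata but by only 0.054 among night cFOS+ and 0.16 among day cFOS- cells. A ratio of 2-fold or more that was also positive in all 4 strata was found for 2.91% of genes. The ratio was below 2-fold without cells with astrocyte markers (0.81), as the mean of the 4 strata (0.84) and among cells with lower numbers (0.98).

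The other K2P genes were scarce. Kcnk10 (TREK2) was found in 6.71% of active and 6.67% of silent thinned cells, with pooled levels of 10.1 CPM in active and 8.60 CPM in silent cells (log2 ratio 0.21). This ratio was -1.17 without cells with microglia markers, -0.19 without cells with astrocyte markers and -0.47 with the deposited normalized values. It was 0.33 with top cells removed. Kcnk9 (TASK3) had a read in 3 of 165 active and 9 of 118 silent cells, with pooled levels of 0.328 CPM in active and 1.76 CPM in silent cells, and its share was lower in active cells in all 4 strata. It was below 5 CPM in both groups and outside the counts above.

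Kcnj10 (Kir4.1) had the widest pooled difference, 9.53 CPM in active and 0.151 CPM in silent cells (log2 ratio 3.19), positive in all 4 strata (0.10 to 4.47), and it rested on few cells. A read was found in 11 of 165 active cells (0.139 to 515 CPM) and 3 of 118 silent cells (0.160 to 16.6 CPM). Cell S190, a day active cFOS- neuron, had 515 CPM and held 43.4% of the Kcnj10 CPM summed over active cells. With the top cells of both groups removed the log2 ratio was 2.28. Kcnj10 was at 14.9 CPM in the 106 cells with astrocyte markers and 3.01 CPM in the others, with a read in 8.70% (3.83 to 16.4%) of thinned cells with those markers and 1.14% (0.139 to 4.07%) of the others. Without those 106 cells the ratio was 1.73. The 12 astrocyte markers, of which 9 of 11 tested were higher in active cells, summed to 0 to 8411 CPM in active cells (median 12.9) and 0 to 4904 CPM in silent cells (median 23.5), and their part in the Kcnj10 difference was not tested further.

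Among Kcnj3, Kcnj6 and Kcnj9, the GIRK subunits described here, only Kcnj6 passed 2-fold. Kcnj6 (GIRK2) had a read in 13 of 165 active cells (0.178 to 744 CPM) and 9 of 118 silent cells (0.838 to 156 CPM), and shares in thinned cells of 8.05% for active and 7.62% for silent. Pooled levels were 9.92 CPM in active and 3.24 CPM in silent cells (log2 ratio 1.37, positive in 3 of 4 strata). The night active cFOS+ cell S560 had 744 CPM of Kcnj6 and 506.2 CPM of astrocyte markers. It held 45.6% of the Kcnj6 CPM summed over active cells. The ratio was 0.96 with top cells removed, 0.27 without cells with astrocyte markers, and -0.021 among cells with lower numbers against 2.42 among those with higher numbers.

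Kcnj3 (GIRK1) and Kcnj9 (GIRK3) were at like pooled levels in active and silent cells. Kcnj3 had 17.2 CPM in active and 19.1 CPM in silent cells, and reads in 32 active and 21 silent thinned cells. The Kcnj3 log2 ratio was -0.14 with all cells and 0.28 with top cells removed. Its strata went opposite ways, with log2 ratios of -1.22 in day cFOS+, -3.70 in day cFOS-, 2.17 in night cFOS+ and 1.53 in night cFOS- cells. The day silent cFOS- value of 46.9 CPM was 9.81 CPM without cell S498, and the night active cFOS+ value of 34.7 CPM was 11.0 CPM without cell S453. The day active cFOS- cells, at 2.68 CPM, were below the day silent cFOS- cells with or without S498. Kcnj9 had 33.7 CPM in active and 28.8 CPM in silent cells, and shares of 22.8% in active and 27.6% in silent cells.

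**Figure D2:**
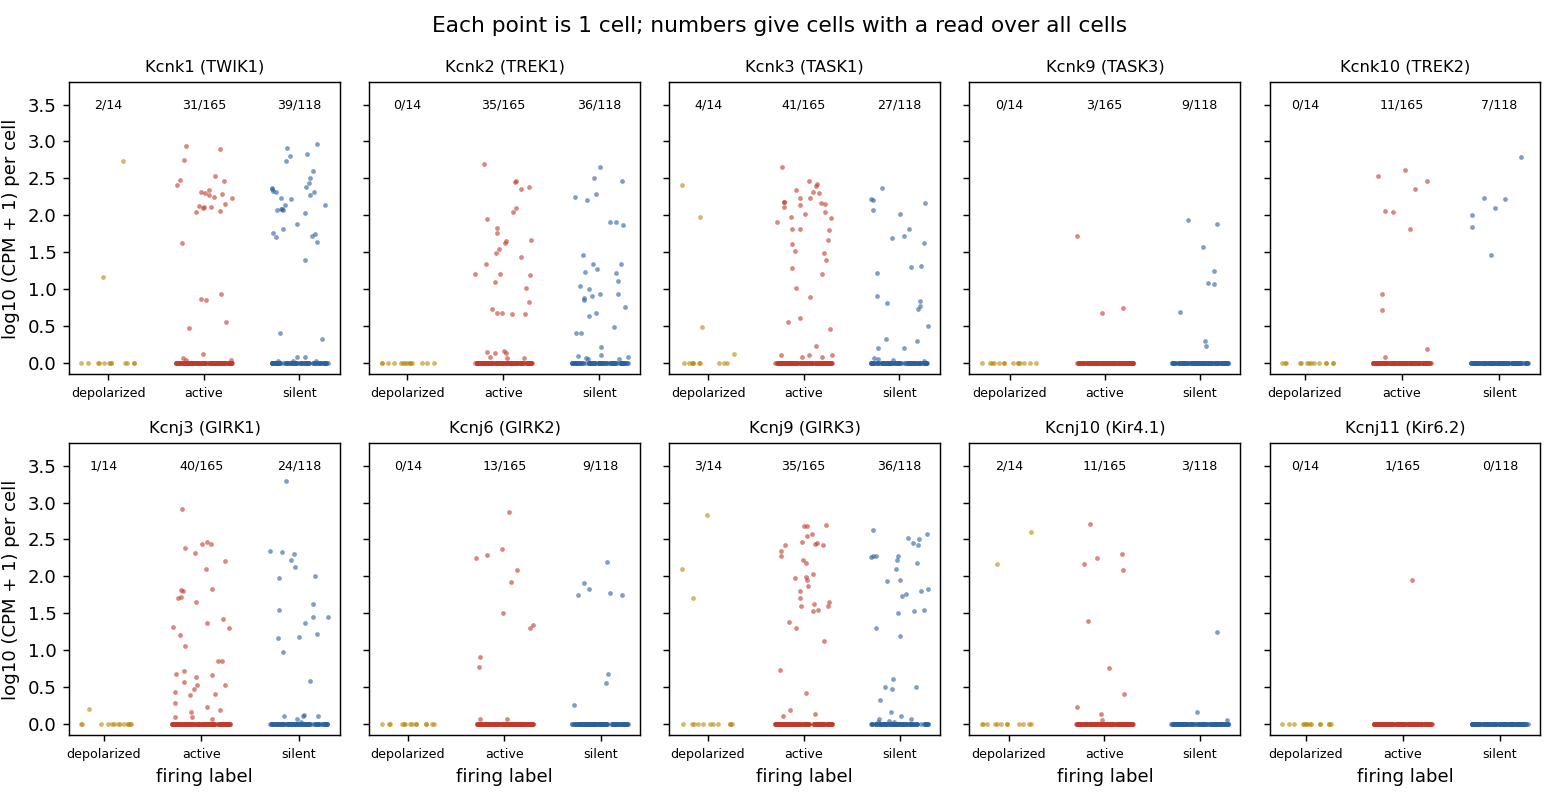
Level of each gene in every cell, as log10 of (CPM + 1), for depolarized, active and silent cells, with the number of cells with a read over all cells above each column. Most points lie at 0, Kcnk1 has a read in 31 of 165 active and 39 of 118 silent cells, and Kcnk2, Kcnk9, Kcnk10, Kcnj6 and Kcnj11 have none in the 14 depolarized cells.

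By day, Kcnj6 was at a lower pooled level and Kcnj10 at a higher one than by night, Kcnj6 in all 4 strata and Kcnj10 in 3 of 4, while the more widely found genes differed by less than 2-fold when all cells were counted. This comparison asks whether these channel genes follow the time of day. Of 8 genes at 5 CPM or more, 2 were 2-fold or more apart in either direction, against 14.4% of 11856 genes, and 4 of 8 were higher by day, against 47.8%. A difference of 2-fold or more with 1 direction in all 4 strata was found for 2.96% of genes lower and 2.05% of genes higher by day. The median log2 ratio of the 8 was 0.29, against -0.03 over all genes tested. Microglia markers were higher by day for 11 of 11 genes tested (median log2 ratio 1.72; summed level 0 to 34382 CPM, median 52.6, by day and 0 to 31204 CPM, median 3.11, by night), and astrocyte markers for 9 of 11 (median 1.69). The part of that difference in the values below was not tested, except where values without such cells are given.

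Kcnj6 (GIRK2) had a read in 11 of 127 day cells, the highest at 231.8 CPM, and 11 of 156 night cells, the highest at 744 CPM. Shares of thinned cells were alike, 7.89% for day (interval 3.67 to 14.5%) and 7.86% for night (3.99 to 13.6%), so the difference lay in the levels of a few cells. Among cells with a read the median was 18.9 CPM by day and 82.4 CPM by night. Pooled levels were 2.74 CPM by day and 10.7 CPM by night (log2 ratio -1.64; strata -2.41 to -0.19). The ratio was -1.50 with top cells removed and -1.97 without cells with astrocyte markers. It was -0.66 without the cells at 100 CPM or more of Vip.

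Kcnj9 (GIRK3), which can join GIRK2, was also lower by day in 3 of 4 strata, at 23.9 CPM by day and 37.96 CPM by night (log2 ratio -0.65), with shares of 21.1% by day (14.0 to 29.7%) and 27.9% by night (20.6 to 36.1%). Cells at 100 CPM or more of Kcnj9 numbered 9 of 127 by day and 19 of 156 by night. The ratio was -1.06 among cells with lower numbers and -0.22 among those with higher numbers. Kcnj3 (GIRK1) was at 17.3 CPM by day and 18.5 CPM by night. Cell S498 held 61.7% of the Kcnj3 CPM summed over day cells. With top cells removed the Kcnj3 log2 ratio was -0.58, against -0.09 with all cells. For the GIRK partners, the G protein beta and gamma genes, Gng7 was lower by day (22.8 CPM by day and 43.3 CPM by night; log2 ratio -0.90) and Gng10 higher (184.6 CPM by day and 117.9 CPM by night; 0.64), each in all 4 strata, where 7.95% of all genes tested were lower and 5.95% higher by day.

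Kcnj10 (Kir4.1) had a read in 10 of 127 day cells and 4 of 156 night cells, with pooled levels of 11.6 CPM by day and 0.754 CPM by night (log2 ratio 2.84). The ratio was 0.63 to 3.42 in 3 strata and 0.012 in the silent cFOS+ stratum, where day cells had 0.0083 CPM, below the 0.0248 CPM that 3 reads make there, and night cells none. One day cell held 52.7% of the Kcnj10 CPM summed over day cells, and the ratio with top cells removed was 2.20. It was 2.13 without cells with astrocyte markers. Among cells with higher numbers in their titles it was 0.0077, against 4.32 among those with lower numbers.

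Among the K2P genes, Kcnk2 (TREK1) was at 21.3 CPM by day and 10.9 CPM by night (log2 ratio 0.91, positive in 3 of 4 strata), with shares of 28.9% by day (20.8 to 38.2%) and 21.4% by night (14.9 to 29.2%). The ratio was 1.56 without cells with microglia markers and 1.81 without cells with astrocyte markers. Kcnk3 (TASK1) was at 23.6 CPM by day and 13.4 CPM by night (log2 ratio 0.77, positive in 3 of 4 strata), with shares of 24.6% by day and 20.7% by night. Its ratio was 1.07 without cells with astrocyte markers, and 2.37 among cells with higher numbers in their titles against 0.39 among those with lower numbers. Kcnk10 (TREK2) was at 12.2 CPM by day and 7.28 CPM by night with reads in 8 day and 9 night thinned cells, and Kcnk1 (TWIK1) at 40.1 CPM by day and 46.0 CPM by night. Without cells with microglia markers the ratios were 2.17 for Kcnk10, against 0.67 with all cells, and -1.09 for Kcnk1, against -0.19. With top cells removed the Kcnk10 ratio was 1.03. Among cells with lower numbers the Kcnk1 ratio was -1.11, against 0.041 among those with higher numbers. For these 4 genes the intervals of the day and night shares overlapped.

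**Figure D3:**
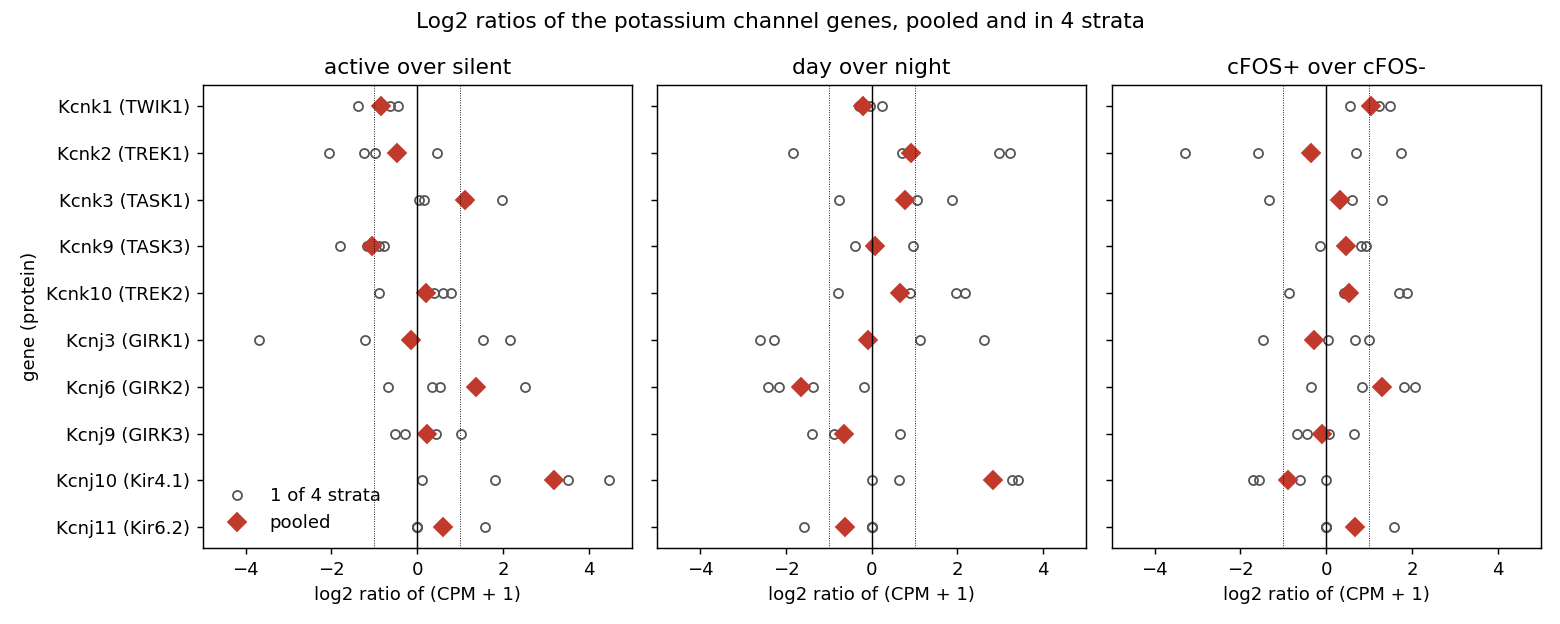
Log2 ratio of each gene in the 3 comparisons, pooled (diamonds) and in each of 4 strata (open circles), with dotted lines at 2-fold. Kcnk1 lies left of 0 in all strata for active over silent and right of 0 in all strata for cFOS+ over cFOS-, Kcnj6 lies left of 0 in all strata for day over night, and Kcnj3 spreads from -3.70 to 2.17 for active over silent.

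Cells labelled cFOS+ had a higher pooled level of Kcnk1 than cells labelled cFOS-, in all 4 strata, and fewer of them contained Kcnk2. This comparison asks which channel genes go with the mark of recent activity. Of 8 genes at 5 CPM or more, 2 were 2-fold or more higher in cFOS+ cells, against 5.74% of 11828 genes, and none was 2-fold or more lower, against 8.29%. The median log2 ratio of the 8 was 0.12, against -0.04 over all genes tested, and 4 of 8 were higher, against 46.3%.

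Kcnk1 (TWIK1) had a read in 40 of 143 cFOS+ cells, the highest at 928 CPM, and 29 of 139 cFOS- cells, the highest at 540 CPM. Pooled levels were 57.8 CPM in cFOS+ and 27.5 CPM in cFOS- cells (log2 ratio 1.04; strata 0.57 to 1.5). A ratio of 2-fold or more with all 4 strata positive was found for 1.75% of genes. The shares, 25.2% of cFOS+ cells (17.9 to 33.7%) and 20.6% of cFOS- cells (13.9 to 28.8%), had overlapping intervals and were higher in cFOS+ cells in 3 of 4 strata. Without the 113 cells with microglia markers the ratio was 0.22, and those markers summed to a median of 3.14 CPM (0 to 34382) in cFOS+ and 42.7 CPM (0 to 31204) in cFOS- cells, with 1 of 11 higher in cFOS+ cells.

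Kcnk2 (TREK1) had a read in 19.7% of cFOS+ cells (13.2 to 27.7%) and 30.2% of cFOS- cells (22.3 to 39.0%), lower in cFOS+ cells in all 4 strata. The difference lay mostly in night cells, at -15.1 points in night active and -15.6 in night silent cells. By day it was -0.85 points in active and -3.24 in silent cells. A share at least 10 points lower that was lower in all strata was found for 1.41% of genes. Its pooled levels, 13.7 CPM in cFOS+ and 17.7 CPM in cFOS- cells (log2 ratio -0.35), did not follow the same pattern, with strata from -3.29 to 1.76. Kcnj6 (GIRK2) was at 10.6 CPM in cFOS+ and 3.70 CPM in cFOS- cells (log2 ratio 1.30) with 11 cells each having a read, and its ratio was 0.69 with top cells removed and -0.030 without cells with astrocyte markers. The other genes at 5 CPM or more, Kcnk3, Kcnk10, Kcnj3, Kcnj9 and Kcnj10, differed by less than 2-fold, with log2 ratios of -0.90 to 0.53 when all cells were counted. The Kcnj10 ratio, -0.90, was 1.81 without cells with astrocyte markers, -1.64 without cells with microglia markers and 0.53 with top cells removed. The Kcnk10 ratio, 0.53, was 1.17 without cells with astrocyte markers and -0.47 without cells with microglia markers.

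The 14 depolarized cells contained few of these genes, and no read at all of Kcnk2, Kcnk9, Kcnk10, Kcnj6 and Kcnj11. The comparison asks which leak and rectifier genes the cells of this label contained. A count of 0 in 13 thinned cells allows a share of up to 24.7% by the exact interval. Kcnk2 had a read in 20.8% of active cells, inside that bound, and 30.5% of silent cells, above it. The interval of the silent share, 21.9 to 40.2%, reached below that bound, so the Kcnk2 intervals of depolarized and silent cells overlapped. For the other 4 genes at 0, shares in active and silent cells were all inside it, so a difference in share was not detectable at this number of cells. Of 8 genes at 5 CPM or more in depolarized or active cells, 4 were 2-fold or more lower in depolarized cells, against 28.4% of 11932 genes, and 1 was 2-fold or more higher, against 14.6%. Against silent cells, with which the comparison shares the depolarized cells, 3 of 7 were 2-fold or more lower, against 28.2%, and 2 were higher, against 16.2%. The median log2 ratio of the members tested was -1.70 to active and -0.61 to silent cells, against -0.17 over all genes in both.

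The K2P reads of depolarized cells were of Kcnk1 and Kcnk3. Kcnk1 had 546 CPM in S395 and 13.7 CPM in S352, both day cFOS+, and 0 in the other 12. Kcnk3 had 259 CPM in S352, 93.8 CPM in S286 (night cFOS-), 2.07 CPM in S324 and 0.349 CPM in S387 (both day cFOS-). Pooled, Kcnk1 was at 38.03 CPM in depolarized, 32.4 CPM in active and 58.6 CPM in silent cells, and Kcnk3 at 24.4 CPM in depolarized, 23.5 CPM in active and 10.3 CPM in silent cells.

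The inward rectifiers of depolarized cells were Kcnj9 and Kcnj10. Kcnj9 had 675 CPM in S242 (night cFOS+), 125 CPM in S286 and 50.02 CPM in S381 (day cFOS-), and the first is the highest Kcnj9 value of all 297 cells. S242 also held the only Kcnj3 reads of the depolarized cells, at 0.628 CPM. Kcnj10 had 394.5 CPM in S387 and 145 CPM in S324 and 0 in the other 12 cells, for a pooled level of 40.6 CPM in depolarized, 9.53 CPM in active and 0.151 CPM in silent cells. Averaged over the 4 strata instead, the Kcnj10 ratio to active cells was -1.03, and 1 stratum alone held its reads. Microglia markers were higher in depolarized than in active cells for 11 of 11 genes tested (summed level 0 to 20233 CPM, median 71.2, in depolarized cells and 0 to 31204 CPM, median 5.72, in active cells), and their part in these values was not tested.

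Kcnk3 (TASK1) was found more often in cells with high Vip than in cells with high Avp. Vip, the vasoactive intestinal peptide gene, and Avp, the vasopressin gene, are carried by neurons of the ventral and dorsal SCN. The cells were divided into ranges, not types, by 100 CPM or more of Vip (55 cells), of Avp without Vip (95 cells) and neither (147 cells). Kcnk3 had a read in 40.4% of thinned cells in the Vip range (26.4 to 55.7%), 11.1% in the Avp range (5.46 to 19.5%) and 24.6% in neither (17.5 to 32.9%). The Vip and Avp intervals lay apart, but the share of all genes whose intervals do so was not counted. The intervals also treat cells as independent, though several cells came from each slice. The same limits hold for the Kcnk2 and Kcnj9 shares below. Pooled levels were 39.2 CPM in the Vip range, 2.41 CPM in the Avp range and 21.4 CPM in neither, and the highest Avp-range cell had 65.2 CPM. With the boundary at 10 or 1000 CPM, the shares in the Vip and Avp ranges were 40.4% and 10.4%, or 38.5% and 11.6%.

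The ranges differed in firing and label: 70.9% of the Vip range were active cells, against 47.4% of the Avp range and 55.1% of neither, and 65.5%, 48.4% and 44.9% were labelled cFOS+. Within the Vip range, Kcnk3 had a read in 12 of 35 active and 5 of 9 silent thinned cells. Within the Avp range it had a read in 3 of 42 active and 6 of 43 silent cells, so the higher share in the Vip range held within each firing label. Without the Vip range, the Kcnk3 ratio of active to silent cells was 0.77, below 2-fold.

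Kcnk2 (TREK1) and Kcnj9 (GIRK3) had their highest shares in cells with neither peptide gene, with intervals that overlapped those of the Avp range for Kcnk2 and of the Vip range for Kcnj9. Kcnk2 had a read in 8.51% (2.37 to 20.4%) of the Vip range, 16.7% (9.64 to 25.995%) of the Avp range and 33.8% (25.8 to 42.7%) of neither. Kcnj9 had a read in 19.1% (9.15 to 33.3%) of the Vip range, 15.6% (8.77 to 24.7%) of the Avp range and 33.1% (25.1 to 41.9%) of neither. Kcnk1 (TWIK1) had a pooled level of 13.2 CPM in the Vip range, 58.9 CPM in the Avp range and 43.2 CPM in neither, with shares of 12.8%, 21.1% and 27.7% whose intervals overlapped. Without the Vip range, the Kcnk1 ratio of active to silent cells was -0.57.

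**Figure D4:**
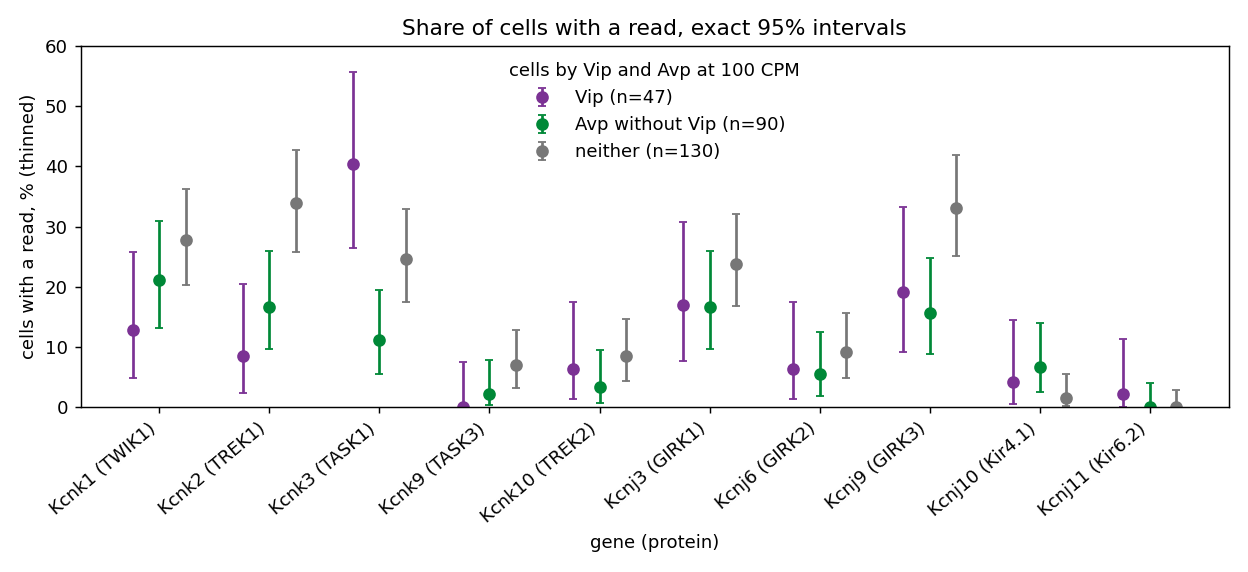
Share of thinned cells with a read of each gene. Cells are those with Vip, with Avp but no Vip, and with neither, at a boundary of 100 CPM. Bars are exact 95% intervals that treat cells as independent. Kcnk3 stands at 40.4% in the Vip range and 11.1% in the Avp range, and Kcnk2 and Kcnj9 stand highest in cells with neither.

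GIRK channels are tetramers, and most thinned cells with a read of Kcnj3, Kcnj6 or Kcnj9 had a read of only 1 of them. Kcnj5, which encodes another GIRK subunit (GIRK4), was not counted here. A subunit without a read may also be uncaptured. At least 1 of Kcnj3, Kcnj6 and Kcnj9 had a read in 105 thinned cells (39.3%). Kcnj9 stood alone in 41 cells, Kcnj3 in 23 and Kcnj6 in 9. Kcnj3 and Kcnj9 were found together in 24 cells, Kcnj3 and Kcnj6 in 10, Kcnj6 and Kcnj9 in 4, and all 3 in 3 of these. Of the 20 cells with Kcnj6, 10 also had Kcnj3, which was found in 54 thinned cells (20.2%) overall.

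Across the 297 cells, Kcnj3 and Kcnj6 had the highest correlation of log2(CPM + 1) of the 45 pairs of genes, at a Pearson r of 0.29, where the median pair was at 0.018. The points share the library, so depth and capture enter each value, and r is given as a description. In cell S36, a night active cFOS- neuron, Kcnj3 was at 276 CPM, Kcnj6 at 174 CPM, Kcnk10 at 64.2 CPM and Kcnk2 at 57.2 CPM. No gene among 8270 searched reached an r of 0.4 with any of the 10, and the highest was 0.36, with Kcnj3.

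Kcnj11 (Kir6.2) was found in 1 cell of 297, the night active cFOS+ neuron S425, at 89.6 CPM. That cell had 29606 CPM of Vip and 195 CPM of Abcc8, the sulfonylurea receptor SUR1 that Kir6.2 needs to form the ATP-sensitive channel. Abcc8 itself had a read in 36 cells (12.1%) at 16.1 CPM pooled, while Kcnj8, the other pore subunit, had a read in 9 cells and Abcc8 with Kcnj8 occurred in 1. In 34 of the 36 Abcc8 cells neither pore gene had a read.

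**Figure D5:**
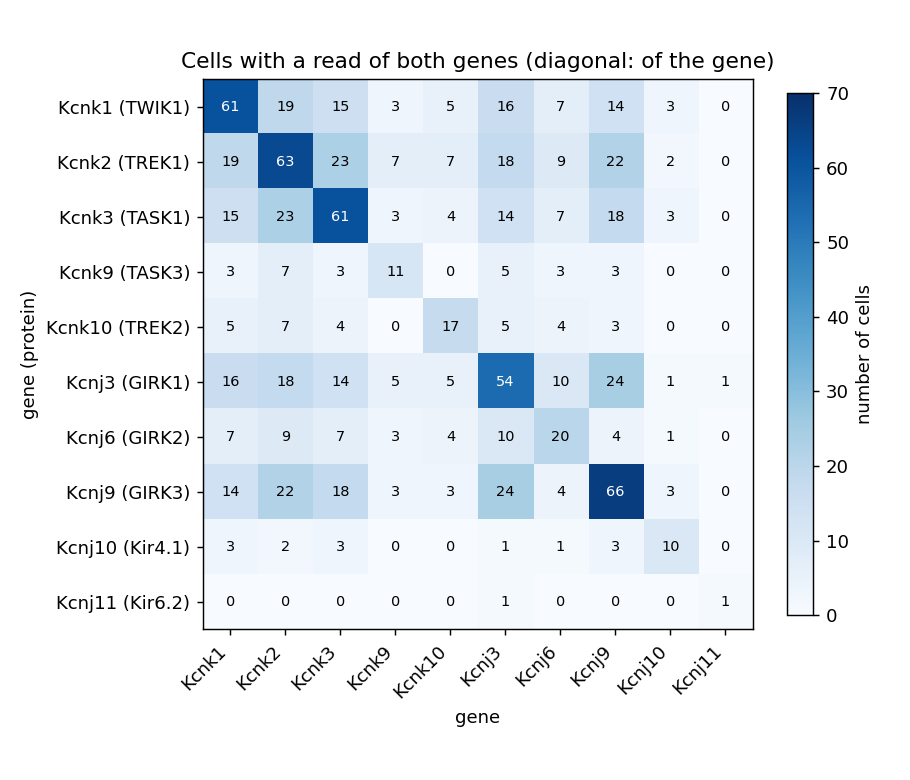
Number of thinned cells with a read of both genes of a pair (off the diagonal) and of the gene itself (on the diagonal). Kcnj3 and Kcnj9 share 24 cells, the most of any pair, and Kcnj3 is found in 10 of the 20 cells with Kcnj6.

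Of the 20 G protein and channel partner genes, 18 were at 5 CPM or more, and 10 were higher in active than in silent cells, against 50.6% of all genes tested (median log2 ratio 0.04). Gng7, a G protein gamma subunit, was at 46.9 CPM in active and 16.4 CPM in silent cells (log2 ratio 1.46), and Gng12, another gamma subunit, at 21.4 CPM in active and 11.4 CPM in silent cells. Gnb5, a beta subunit that pairs with RGS proteins, was at 184 CPM in active and 117 CPM in silent cells. Each was higher in active cells in all 4 strata, as were 7.48% of all genes tested. Gng2 was at 108 CPM in cFOS+ and 212 CPM in cFOS- cells, Gnb2 at 67.0 CPM in cFOS+ and 106 CPM in cFOS- cells and Gng4 at 185.3 CPM in cFOS+ and 123.5 CPM in cFOS- cells, each with 1 direction in all 4 strata, as for 7.48% of genes lower and 5.68% of genes higher in cFOS+ cells.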

How the data were processed

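Cytoplasm of 298 single neurons was sequenced after patch recording. The authors deposited a table of gene counts per cell and a table of normalized values (signal), which the submitters' processing notes tie to STAR, DESeq2 and GRCm38.p4; their versions, settings and annotation are not given in those notes or any other source used here. From the deposited counts, levels were pooled as CPM with Python 3.11.15, numpy 2.4.6, pandas 2.3.3 and scipy 1.17.1. The deposited normalized signal served only as an alternative. Each group is 1 sample, so no model was fitted. A gene counted as tested at 5 CPM or more in either group and as called at a log2 ratio of 1, with a pseudocount of 1 CPM. Code for the pooled ratios was tested on simulated data, and the thinning was not part of that test. Libraries held PCR reads without molecular identifiers.

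The 10 genes were named throughout. Up to 3 partner genes per list and comparison were named by size among those at 20 CPM or more with 1 direction in all 4 strata, and look-alike genes only at an r of 0.4. The genes and lists were chosen with earlier results of these data known. The alternatives covered averaging, pseudocount, normalization, the duplicated cell, marker cells, cell numbers and thinning; leaving out Vip cells was added after seeing the data.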

Additional observations from a re-analysis of the deposited data

Results flagged for a closer look

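In the group of 7 day depolarized cFOS- cells, 3 of the 10 genes had a highest cell set apart from the others by a gap above Dixon's 95% critical value of 0.568 of the range. Kcnk3 was at 2.07 CPM in S324, with the next cell at 0.349 CPM and the other 5 at 0. Kcnj9 was at 50.02 CPM in S381 with the other 6 cells at 0. Kcnj10 was at 394.5 CPM in S387, with S324 at 145 CPM and the other 5 cells at 0. Chance flags about 1 in 20 groups, and a gene found in 1 or 2 of 7 cells readily meets this criterion.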

How the results depend on the processing

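Of 154 recounts of how many of the 10 genes were higher or past 2-fold, 22 moved by more than 1.5 times. These counts take all 10 genes without the minimum of 5 CPM. The shares beside them are of all genes tested at that minimum, under the same setting. The count past 2-fold in active against silent cells, 4 of 10, was 2 as the mean of the 4 strata and 0 with a pseudocount of 10 CPM. The share of genes past 2-fold was 13.5%, against 14.9% as the mean of strata and 2.84% with that pseudocount. By day against night the count past 2-fold was 2. It became 4 as the mean of strata, without top cells, without astrocyte-marker cells and among lower or higher cell numbers. It was 5 without microglia-marker cells, and 1 with a pseudocount of 10 or without Vip cells. The share of genes past 2-fold was 14.4%, against 16.3% as the mean of strata and 13.5% without top cells. It was 21.3% without astrocyte-marker cells and 21.6% without microglia-marker cells. Among lower and higher cell numbers the share was 24.98% and 25.9%. It was 17.1% without Vip cells and far lower with a pseudocount of 10. In cFOS+ against cFOS- cells the count past 2-fold was 2. It became 0 with the mean over cells, a pseudocount of 10 or the lower cell numbers. It was 1 without top cells or with S70 and S71 as 2 cells, and 4 with a pseudocount of 0.1. The share of genes past 2-fold was 14.03%, against 13.2% with the mean over cells and 22.7% among lower cell numbers. It was far lower with a pseudocount of 10 and 15.7% with a pseudocount of 0.1. The share was 12.5% without top cells and 13.7% with S70 and S71 as 2 cells. In depolarized against active cells, 4 genes were higher, against 0 as the mean of strata, 1 without top cells and 2 among higher cell numbers, where 8 and not 5 passed 2-fold. The share of genes higher was 43.7%, against 15.8% as the mean of strata, 20.7% without top cells and 37.3% among higher cell numbers. The share past 2-fold was 43.0%, against 64.3% among higher cell numbers. In depolarized against silent cells, 3 were higher, against 1 as the mean of strata, and 7 passed 2-fold, against 3 with a pseudocount of 10. The share of genes higher was 44.0%, against 17.3% as the mean of strata. The share past 2-fold was 44.4%, against 27.2% with a pseudocount of 10.

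Of 770 recomputed log2 ratios, 500 were counted as moved and a further 8, all of called values, as changed in sign. Sign changes of ratios below 2-fold were not among these 8. Such changes included Kcnk10 in active against silent cells, in 5 of 15 settings. The 8 of called values follow. Kcnj6 in active against silent cells was -0.021 among lower cell numbers, and in cFOS+ against cFOS- cells -0.030 without astrocyte-marker cells and -0.61 among lower cell numbers. Kcnk9 in active against silent cells was 0.26 among higher cell numbers. Kcnj10 in depolarized against active cells was -1.03 as the mean of strata. Kcnk3 in depolarized against silent cells was -0.24 as the mean of strata, -2.46 among higher cell numbers and -3.11 without Vip cells. The cause was not tested. No paired analysis was possible because the results come from no test and the groups share only 1 cell number. Depth limits little at 3187057 reads or more per cell; the number of cells and the few cells that carry the scarcer genes limit the precision.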

Other observations

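Among the 9 K2P genes not described above, Kcnk12 (THIK2) was the most widely found, with a read in 53 of 297 cells (17.8%) and 13.4 CPM pooled, or 6.79 CPM per kb of exon, a level between those of Kcnj9 and Kcnk3. Kcnk13 (THIK1, the main K2P channel of microglia) had a read in 9 cells, each at 106 CPM or more. It was at 15.7 CPM with reads in 5 of the 113 cells with microglia markers and at 5.22 CPM with reads in 4 of the other 184. Kcnk6 (TWIK2) had a read in 20 cells at 4.04 CPM pooled, and Kcnk15 and Kcnk16 had none, which allows up to 0.00148 CPM over all cells when 3 reads are taken as the limit.

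Of the 10 other inward rectifier genes, Kcnj5 (GIRK4, the partner of GIRK1 in heart) had a read in 13 cells, 2 of them at 100 CPM or more, and 4.32 CPM pooled, or 0.922 CPM per kb of exon. It was the only gene of these 10 at 5 CPM or more in active or silent cells. Its log2 ratio of active to silent cells was -2.48, and the night silent cFOS+ cell S565 held 45.2% of its reads. Kcnj12 (Kir2.2) had a read in 12 cells and the highest level per length, 1.20 CPM per kb. Kcnj2 (Kir2.1) had a read in 29 cells but at most 11.4 CPM. Kcnj16 (Kir5.1, which pairs with Kir4.1) had a read in 5 cells, with a highest value of 189.2 CPM.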
